A study of Mus musculus with 6 samples.

Results

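The 10 genes described here encode enzymes that make ceramide, release it from sphingomyelin and break it down: *Sptlc1*, *Sptlc2*, *Cers2*, *Cers4*, *Cers5*, *Cers6*, *Degs1*, *Smpd1*, *Asah1* and *Asah2*. They were taken by symbol from a list drawn up with earlier results of these data known, and are 10 of the 40481 genes in the table of the series. All 10 had enough reads to be tested. Liver RNA was sequenced from 3 control pools and 3 *Mttp-IKO* pools. All mice were male C57BL/6 mice carrying *Mttp* f/f Villin Cre ERT2, that is a floxed microsomal triglyceride transfer protein gene and a tamoxifen-activated Cre recombinase under the Villin promoter, which drives expression in epithelial cells of the intestine. *Mttp-IKO* mice had received tamoxifen and control mice vehicle, although the labels call the controls wild type, and both genotypes ate the methionine/choline-deficient (MCD) diet for 3 weeks. The study's methods give 12 to 16 weeks as the age of the mice put on the diet. Each pool held RNA of several livers, so p-values measure the spread between pools and not between mice. No group without the MCD diet was sequenced, and the control group also carried the floxed alleles and the transgene. Only *Mttp-IKO* mice received tamoxifen, so an effect of the drug and that of the deletion cannot be told apart.

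Ceramide is a fatty acid joined to a sphingoid base, and it is the hub of sphingolipid metabolism. It is built from serine and palmitoyl-CoA in the endoplasmic reticulum, converted to sphingomyelin by addition of a phosphocholine head group, and recovered in lysosomes when sphingomyelinase removes that head group. Ceramides of different acyl chain length come from different ceramide synthases, and in liver *Cers2*, which uses very-long-chain acyl-CoA, is the best known of them.

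The 6 libraries held 25271585 to 36238734 reads on genes, and the 10 genes had 113 to 11562 reads in a pool. The labelled tissue was checked against 7 hepatocyte markers, whose summed level was 54050 to 87400 CPM (the read count of a gene relative to the total of its library, scaled by TMM) in control pools and 107400 to 161700 CPM in *Mttp-IKO* pools, with 6 of 7 higher and 0 past the test. Markers of some other cell types differed with genotype. The summed level of 8 recruited macrophage markers was 274 to 840 CPM in control and 114 to 184 CPM in *Mttp-IKO* pools, and that of 8 stellate cell markers was 851 to 1516 CPM and 457 to 510 CPM. In each of these 2 lists 5 of 8 markers fell at an adjusted p under 0.05 (edgeR), and no marker of either was at 0 in all pools. At that threshold 535 of all 17287 genes tested fell and 159 rose. Summed levels overlapped between genotypes for Kupffer cell (530 to 864 and 356 to 816 CPM), sinusoidal endothelial (330 to 398 and 349 to 392 CPM) and cholangiocyte markers (29.5 to 45.1 and 21.9 to 40.8 CPM). The 8 Kupffer cell markers went both ways, 3 higher and 5 lower, and 1 rose at an adjusted p under 0.05 (edgeR). In bulk tissue, fewer cells of a type and less RNA per cell cannot be told apart. Control pool 2 held striated muscle transcripts (553 CPM over 5 markers, against 66.6 CPM in control pool 1 and 0.461 to 1.03 CPM in the other 4 pools). Small RNA genes took 0.289% of the reads of *Mttp-IKO* pool 3 and 1.92% to 3.51% of those of the other pools. Liver *Mttp* itself was at 90.4, 186 and 175 CPM in control and 145, 129 and 161 CPM in *Mttp-IKO* pools (adjusted p = 0.926, edgeR), which does not check the intestinal deletion.

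The 4 ceramide synthases among the 10 genes are related proteins, and the stretches below are the parts of their transcripts that the study's PCR primers amplify. Each is the coding sequence between and including the primers that the study designed for that gene, matched to GENCODE M21 transcripts (GRCm38), with primer sites in capitals and the rest in lower case.
Cers2: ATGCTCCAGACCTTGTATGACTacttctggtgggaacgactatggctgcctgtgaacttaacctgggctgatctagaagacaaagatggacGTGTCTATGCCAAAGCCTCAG
Cers4: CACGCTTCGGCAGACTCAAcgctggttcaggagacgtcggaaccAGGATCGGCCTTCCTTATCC
Cers5: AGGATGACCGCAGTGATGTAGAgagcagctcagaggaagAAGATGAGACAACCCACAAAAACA
Cers6: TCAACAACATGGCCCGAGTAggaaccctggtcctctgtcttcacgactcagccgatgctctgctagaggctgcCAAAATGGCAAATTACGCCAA

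The *Cers2* stretch lies in exon 2 at chr3:95320063-95320174 on the plus strand, and the *Cers4* stretch in exon 4 at chr8:4518275-4518338 on the plus strand. The *Cers5* stretch lies in exon 10 at chr15:99736367-99736429 on the minus strand, and the *Cers6* stretch spans exons 7 and 8 at chr2:69068690-69071357 on the plus strand, so its genomic span includes an intron. None of the 4 primer pairs matched a transcript of another gene. The pairs matched 7 of 9 transcripts of *Cers2*, 8 of 9 of *Cers4*, 3 of 6 of *Cers5* and 3 of 7 of *Cers6*. Coding sequences of the 4 genes were 56.3% to 67.2% identical in pairs, with *Cers5* and *Cers6* the closest pair, which shared at most 18 nucleotides in a row. Windows of 50 nucleotides shared with other genes made up 8.48% of those of *Cers4*, 2.05% of *Cers2*, 0.354% of *Degs1*, 0.0888% of *Smpd1* and 0% of the other 6 genes. Exons on the opposite strand covered 8.97% of *Cers4* and 5.96% of *Cers2* exon sequence. Whether counting used strand is not given in the sources used here. The study's methods count only unambiguous reads. Without strand, reads over exons of both genes would therefore be missing from these 2 counts.

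Levels per gene length ranged 149-fold among the 10 genes, from 79.7 RPKM (CPM divided by gene length in kilobases) for *Cers2* to 0.535 RPKM for *Cers4*, as means of 6 pools. *Smpd1* (27.7 RPKM) and *Degs1* (24.8 RPKM) came next, then *Asah1* (14.4 RPKM), *Cers6* (9.24 RPKM), *Sptlc1* (7.95 RPKM), *Sptlc2* (6.16 RPKM), *Asah2* (4.42 RPKM) and *Cers5* (1.68 RPKM). Over the 6 pools the ranges overlapped between *Smpd1* and *Degs1*, *Asah1* and *Cers6*, *Cers6* and *Sptlc1*, and *Sptlc2* and *Asah2*, so the order within these neighbours is not firm. Ranges of the other neighbours in the order did not overlap. The exon length of *Asah2* is 4682 nucleotides in the files and 11638 in GENCODE M21, which would put it at 1.78 RPKM, and the M21 length would put *Sptlc1* at 5.82 RPKM and *Smpd1* at 20.1 RPKM, below *Sptlc2* and *Degs1*, respectively.

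**Figure D1:**
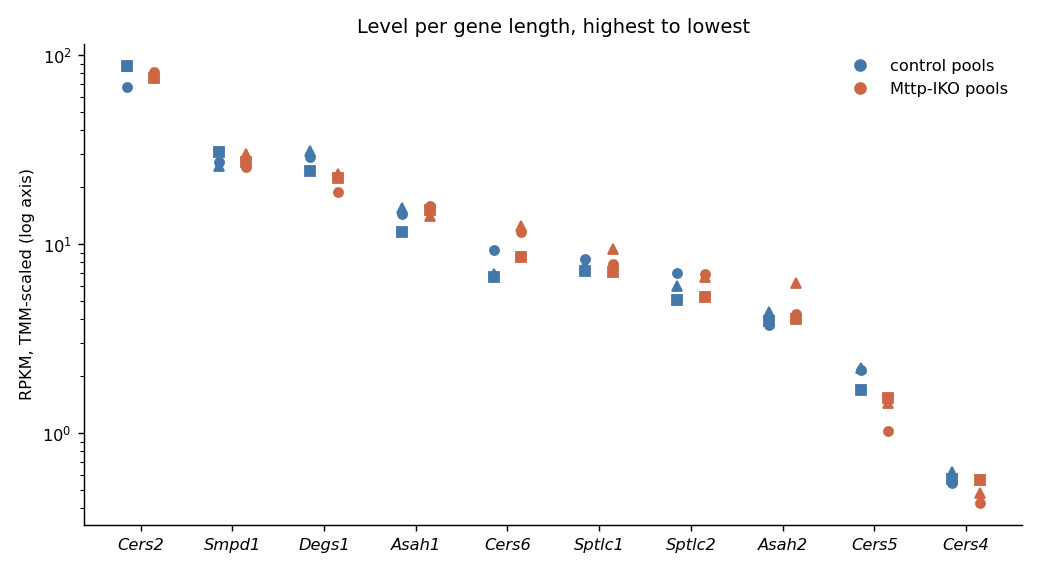
Level of each enzyme per gene length (RPKM, log axis) in 3 control and 3 Mttp-IKO pools, ordered by the mean of 6 pools; circles, squares and triangles are pools 1, 2 and 3 of a genotype. Cers2 stands apart at 67.5 to 87.7 RPKM and Cers4 is lowest at 0.426 to 0.624 RPKM.

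None of the 10 genes differed between genotypes at an adjusted p under 0.05 (edgeR's quasi-likelihood test with Benjamini-Hochberg adjustment over 17287 genes), where 694 genes, or 4.01%, did. At an unadjusted p under 0.05 the count was 3 of 10 (*Cers5*, *Cers6* and *Degs1*), against 23.0% of all genes tested, and by limma-voom 3 and by DESeq2 2. By edgeR this count was 0 without control pool 3 or *Mttp-IKO* pool 1, 1 without control pool 1, and 2 without any one of the other pools. Over all genes tested it was 2539 of 17869 without control pool 3 and 4457 of 17943 without *Mttp-IKO* pool 1. Without control pool 1 it was 2476 of 17652. Without control pool 2, *Mttp-IKO* pool 2 or *Mttp-IKO* pool 3 it was 3592 of 17784, 3221 of 17873 and 4686 of 17854. Control and *Mttp-IKO* pools were fully separated for 2 of 10 genes in the lower direction (*Cers5* and *Degs1*) and for 0 of 10 in the higher, against 16.5% and 14.5% of all genes. These counts give no result about the 10 genes as a set. Of the estimates, 5 lay above 0 and 5 below, with a median log2 fold change (*Mttp-IKO* minus control) of 0.02 against 0.01 over all genes. Estimates ranged from -0.60 to 0.51, and both bounds of the 95% interval lay within a 2-fold change for 9 of the 10 genes, all but *Cers5*.

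**Figure D2:**
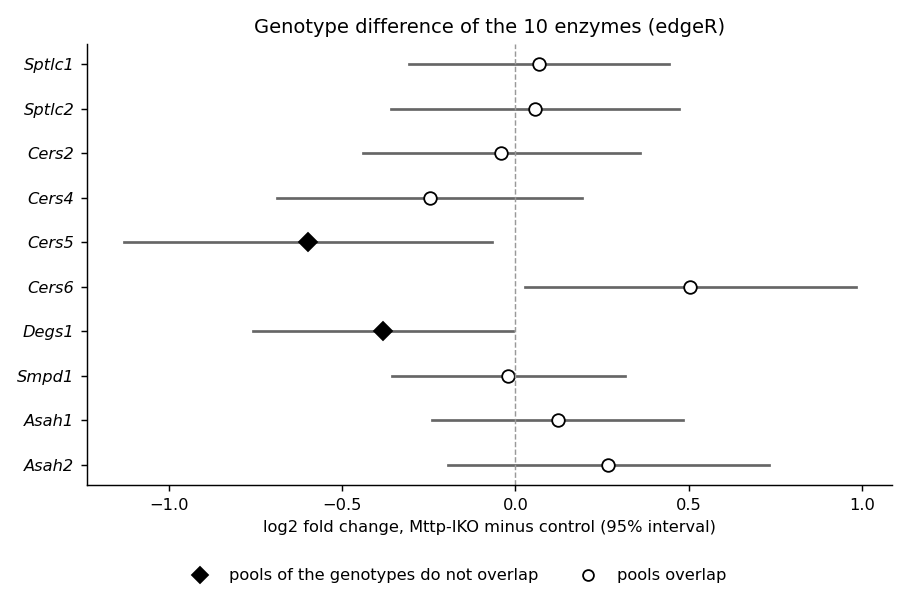
Log2 fold change (Mttp-IKO minus control) of each enzyme with its 95% interval from edgeR, in order of their place in the pathway. The intervals of 7 genes include 0; those of Cers5 (-1.13 to -0.07), Cers6 (0.03 to 0.98) and Degs1 (-0.76 to -0.01) do not, and no adjusted p was under 0.05.

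Serine palmitoyltransferase, the committed step of sphingoid base synthesis, is formed by *Sptlc1* (chr13:53332716-53377365, minus strand) and *Sptlc2* (chr12:87305058-87388355, minus strand), the latter carrying the catalytic lysine. *Sptlc1* was at 21.7, 18.8 and 20.2 CPM in control pools 1 to 3 and at 20.4, 18.6 and 24.6 CPM in *Mttp-IKO* pools 1 to 3. *Sptlc2* was at 57.1, 41.2 and 48.7 CPM in control and at 56.0, 42.7 and 54.2 CPM in *Mttp-IKO* pools. The genotypes overlapped for both genes, with pool 2 lowest in each genotype. The log2 fold change was 0.07 for *Sptlc1* (95% interval -0.31 to 0.44, adjusted p = 0.842, edgeR) and 0.06 for *Sptlc2* (-0.36 to 0.47, adjusted p = 0.881, edgeR). The *Sptlc2* to *Sptlc1* RPKM ratio was 0.775 ± 0.072 (SD, n = 3) in control and 0.776 ± 0.094 (SD, n = 3) in *Mttp-IKO* pools.

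The ceramide synthases attach an acyl chain to the sphingoid base. *Cers2* (chr3:95314791-95323599, plus strand) was at 248, 321 and 322 CPM in control and at 298, 279 and 290 CPM in *Mttp-IKO* pools. All *Mttp-IKO* pools lay between control pool 1 and the other 2 control pools. The difference was -0.04 on the log2 scale (95% interval -0.44 to 0.36, adjusted p = 0.914, edgeR). *Cers4* (chr8:4493026-4531680, plus strand), a synthase of long-chain ceramides, was at 6.67, 7.04 and 7.65 CPM in control and at 5.22, 6.89 and 5.87 CPM in *Mttp-IKO* pools, where pool 2 lay within the control range. Its log2 fold change was -0.25 (95% interval -0.69 to 0.19, adjusted p = 0.476, edgeR).

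*Cers5* and *Cers6* are the synthases that use palmitoyl-CoA, and they had the lowest and the highest estimate of the 10 genes. *Cers5* (chr15:99734881-99772885, minus strand) was at 7.66, 5.96 and 7.84 CPM in control and at 3.64, 5.45 and 5.08 CPM in *Mttp-IKO* pools. Each *Mttp-IKO* pool was below every control pool, and the mean was 34.0% lower, from 7.15 ± 1.04 to 4.72 ± 0.955 CPM (SD, n = 3 each). The log2 fold change was -0.60 (SE 0.23, unadjusted p = 0.0314, adjusted p = 0.174, edgeR), and an exact two-sided permutation test gave p = 0.1, the smallest that 3 pools against 3 allow. *Cers6* (chr2:68861441-69114282, plus strand) was at 82.8, 59.3 and 61.2 CPM in control and at 103, 75.4 and 110 CPM in *Mttp-IKO* pools. *Mttp-IKO* pools 1 and 3 were above all control pools, and pool 2 lay below control pool 1. The mean was 42.0% higher, from 67.8 ± 13.03 to 96.2 ± 18.4 CPM (SD, n = 3 each), with a log2 fold change of 0.51 (SE 0.21, unadjusted p = 0.0406, adjusted p = 0.197, edgeR; exact permutation p = 0.2).

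Shares of the summed RPKM of *Cers1* to *Cers6* describe the composition of the family within a pool. *Cers2* held 84.7%, 90.4% and 90.0% in control and 86.1%, 87.7% and 84.6% in *Mttp-IKO* pools, so it was the leading synthase transcript in every pool. *Cers6* held 11.7%, 6.93% and 7.08% in control and 12.3%, 9.83% and 13.3% in *Mttp-IKO* pools, where control pool 1 again lay among the *Mttp-IKO* values. The share of *Cers5* was 2.24% ± 0.485 in control and 1.47% ± 0.3495 in *Mttp-IKO* pools (SD, n = 3 each), with overlap between *Mttp-IKO* pool 2 (1.78%) and control pool 2 (1.75%). *Cers4* held 0.639% ± 0.0433 and 0.539% ± 0.101 (SD, n = 3 each). *Cers1* and *Cers3*, the synthases best known from neurons and skin, were too low to be tested, and each was at most 0.230% in any pool.

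The *Cers6* to *Cers5* ratio of RPKM was 4.31, 3.97 and 3.12 in control pools and 11.3, 5.52 and 8.67 in *Mttp-IKO* pools. It was higher in every *Mttp-IKO* pool than in any control pool, with means of 3.80 ± 0.616 and 8.49 ± 2.88 (SD, n = 3 each). The 2 genes were paired after their opposite estimates had been seen, so the ratio was not tested. The *Cers6* to *Cers2* ratio overlapped between genotypes, at 0.0978 ± 0.0349 and 0.138 ± 0.0233 (SD, n = 3 each).

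**Figure D3:**
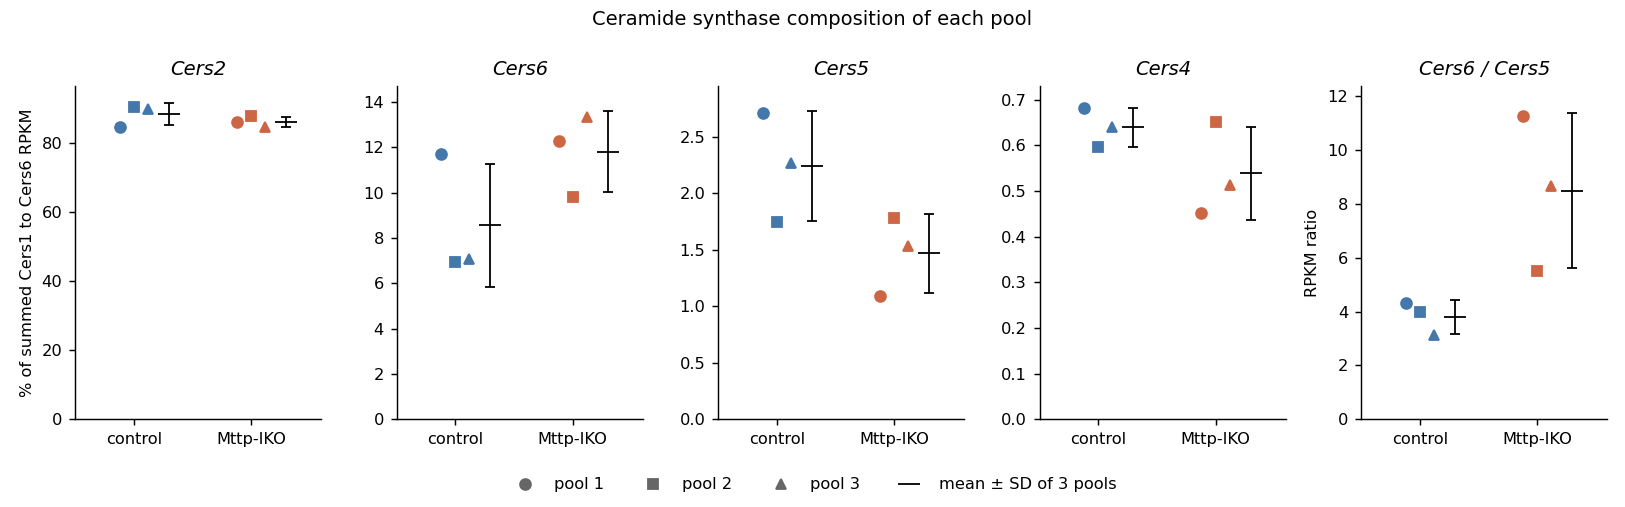
Share (%) of Cers2, Cers6, Cers5 and Cers4 in the summed RPKM of Cers1 to Cers6, and the Cers6 to Cers5 RPKM ratio, in each of 3 control and 3 Mttp-IKO pools with mean ± SD. Cers2 holds 84.6% to 90.4% in every pool, and only the Cers6 to Cers5 ratio, among these 5 panels, is without overlap (3.12 to 4.31 against 5.52 to 11.3).

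*Degs1* (chr1:182275772-182282804, minus strand) places the double bond that turns dihydroceramide into ceramide. It was at 74.7, 62.9 and 80.7 CPM in control and at 48.9, 57.6 and 61.0 CPM in *Mttp-IKO* pools. All *Mttp-IKO* pools were below all control pools, and the nearest values were those of *Mttp-IKO* pool 3 and control pool 2. The mean was 23.3% lower, from 72.8 ± 9.06 to 55.8 ± 6.25 CPM (SD, n = 3 each), and the log2 fold change was -0.38 (SE 0.16, unadjusted p = 0.0464, adjusted p = 0.209, edgeR; exact permutation p = 0.1). The recruited macrophage and stellate cell markers, lower in *Mttp-IKO* pools for 8 of 8 and 8 of 8 genes, moved with *Cers5* and *Degs1*, and their part in these differences was not tested.

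*Smpd1* (chr7:105554360-105558388, plus strand) encodes acid sphingomyelinase, the lysosomal enzyme that releases ceramide from sphingomyelin. It was at 65.8, 73.8 and 62.5 CPM in control and at 61.7, 65.2 and 72.3 CPM in *Mttp-IKO* pools, with the genotypes interleaved. The log2 fold change was -0.02 (95% interval -0.36 to 0.32, adjusted p = 0.951, edgeR), the smallest in size of the 10 genes.

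Ceramidases cleave ceramide to sphingosine and a fatty acid. *Asah1* (chr8:41340197-41374773, minus strand), the acid ceramidase of lysosomes, was at 48.9, 39.3 and 52.3 CPM in control and at 53.6, 51.5 and 47.7 CPM in *Mttp-IKO* pools. The genotypes overlapped, and the log2 fold change was 0.12 (95% interval -0.24 to 0.48, adjusted p = 0.680, edgeR). *Asah2* (chr19:31984654-32061469, minus strand), the neutral ceramidase, was at 17.5, 18.4 and 20.4 CPM in control and at 19.9, 18.7 and 29.2 CPM in *Mttp-IKO* pools. Only *Mttp-IKO* pool 3, the pool with few small RNA reads, was above the control range. The log2 fold change was 0.27 (95% interval -0.20 to 0.73, adjusted p = 0.463, edgeR), and 0.05 without that pool.

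**Figure D4:**
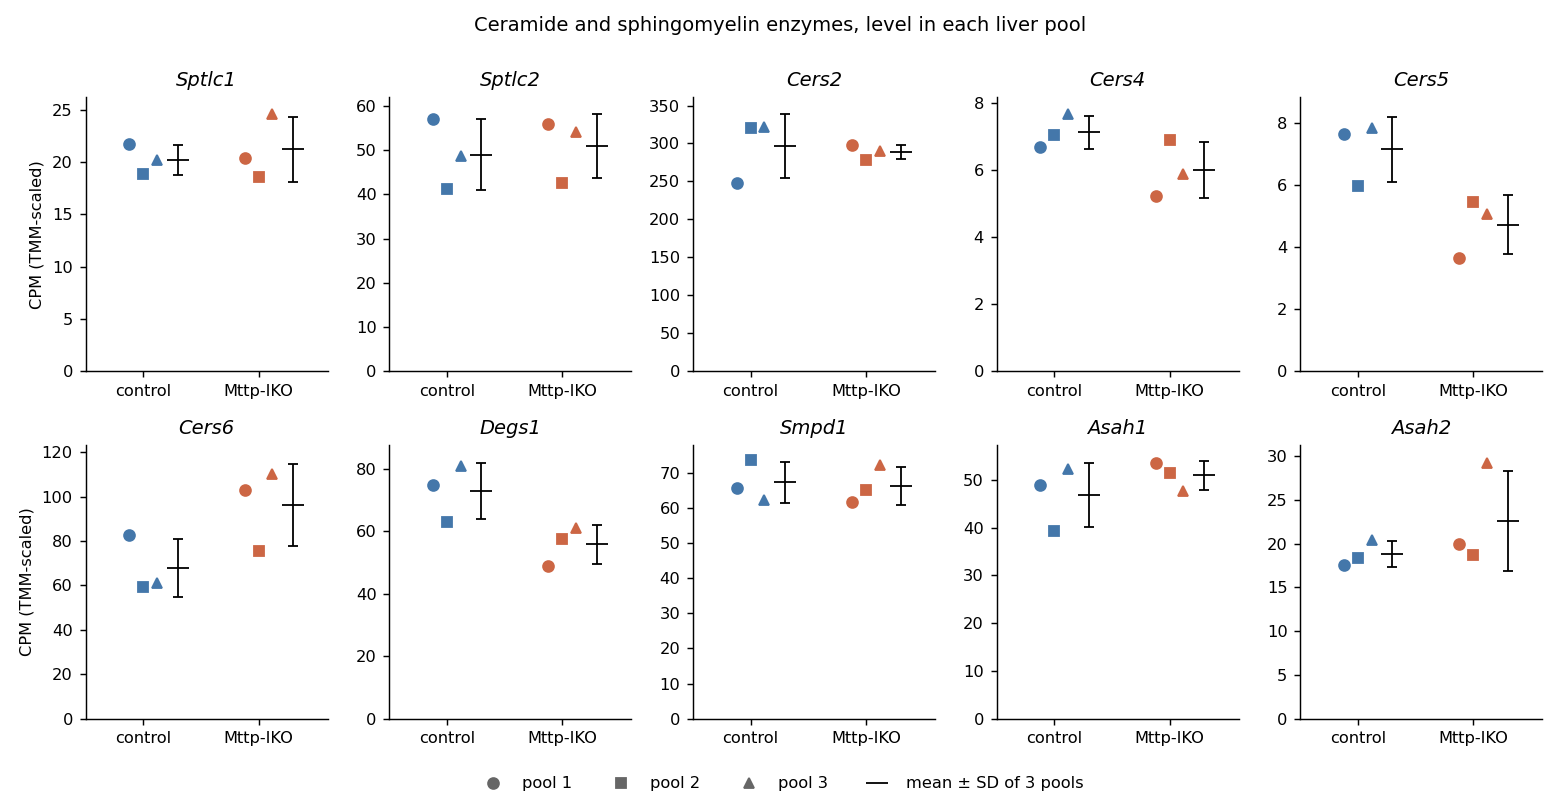
Level of each of the 10 enzymes (CPM, TMM-scaled) in 3 control and 3 Mttp-IKO liver pools, one symbol per pool, with the mean ± SD of 3 pools beside them; every axis starts at 0. Cers5 (3.64 to 5.45 against 5.96 to 7.84 CPM) and Degs1 (48.9 to 61.0 against 62.9 to 80.7 CPM) are the genes without overlap.

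The 10 enzymes sit in a wider set of sphingolipid genes, of which 65 were listed and 58 had enough reads to be tested. One of the 58 passed the test, against 4.01% of all genes tested. The same share stands beside the counts of genes passing in each list below. The gene that passed was *S1pr2*, a receptor for sphingosine 1-phosphate, and it fell. It was at 19.2, 12.1 and 15.3 CPM in control and at 5.58, 5.49 and 5.08 CPM in *Mttp-IKO* pools, with a log2 fold change of -1.53 (SE 0.21, adjusted p = 0.0181, edgeR). It missed the threshold without control pool 1 (adjusted p = 0.0715), control pool 3 (0.0752), *Mttp-IKO* pool 1 (0.0613) or *Mttp-IKO* pool 2 (0.0998), with the same direction each time. The recruited macrophage and stellate cell markers were lower in the same pools (median log2 fold change -2.32 and -1.86, 5 of 8 called in each list), and their part in the *S1pr2* difference was not tested. Of the 58 genes, 24 estimates were above 0 and 34 below, with a median log2 fold change of -0.17. An unadjusted p under 0.05 (edgeR) was found for 21 of them, against 23.0% of all genes tested. Without control pool 3 the count was 13, and over all genes it was 2539 of 17869. Pools were fully separated by genotype for 6 genes in the higher direction and 17 in the lower, where 14.5% and 16.5% of all genes were.

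**Figure D5:**
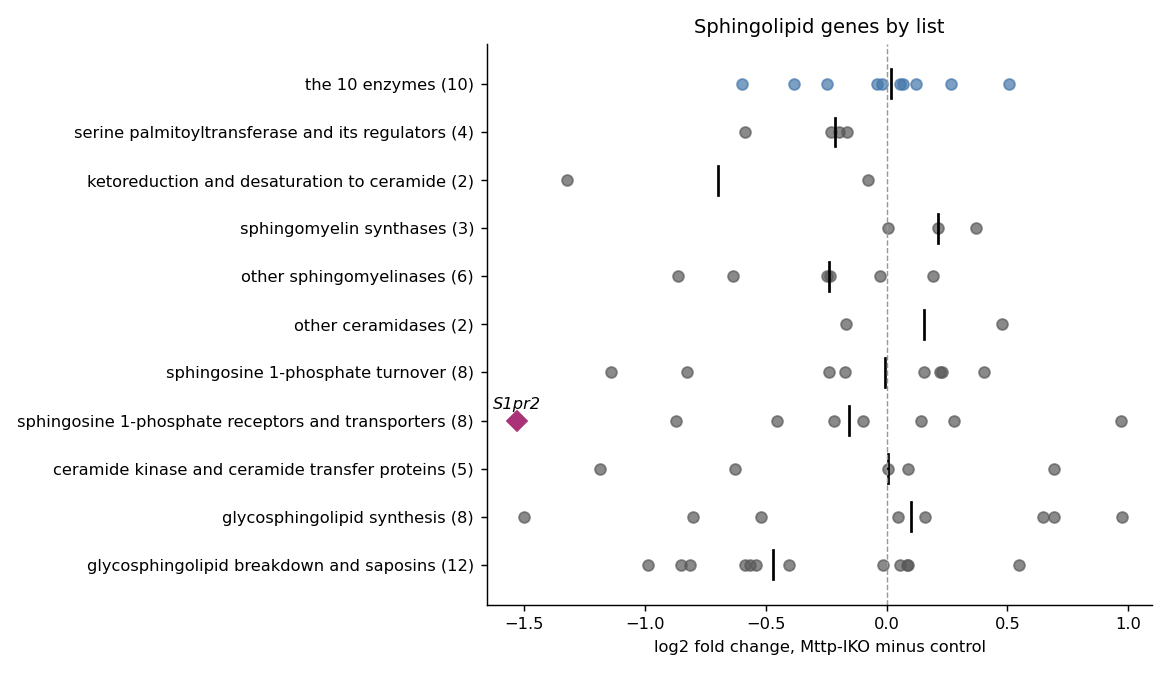
Log2 fold change (Mttp-IKO minus control, edgeR) of the 10 enzymes and of 58 other sphingolipid genes by list, 1 point per gene, with the number tested in parentheses and a vertical bar at each median. The diamond marks S1pr2 (-1.53), the one gene with an adjusted p under 0.05, and the lowest median with more than 2 genes is that of glycosphingolipid breakdown (-0.47).

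Around the synthesis enzymes, the regulators of serine palmitoyltransferase had no gene past the threshold, and all 4 that were tested had estimates below 0. *Ormdl1*, which with *Ormdl3* restrains the enzyme, was at 6.32, 6.68 and 6.996 CPM in control and at 4.51, 5.04 and 3.73 CPM in *Mttp-IKO* pools (difference of -0.59 on the log2 scale, adjusted p = 0.137, edgeR). *Ormdl3* was at 73.4, 80.2 and 81.3 CPM against 68.02, 68.6 and 63.6 CPM (-0.23, adjusted p = 0.3497, edgeR). Neither gene overlapped between genotypes. *Kdsr*, the ketoreductase that follows serine palmitoyltransferase, overlapped (-0.08, adjusted p = 0.849, edgeR). *Degs2*, the desaturase and hydroxylase related to *Degs1*, was at 3.47, 2.22 and 3.56 CPM in control and at 1.26, 1.10 and 1.34 CPM in *Mttp-IKO* pools, without overlap (-1.32, adjusted p = 0.0503, edgeR), and its adjusted p was under 0.05 in 8 of 17 alternative analyses.

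The products of *Sgms1* and *Sgms2* move phosphocholine onto ceramide, and 0 of the 3 genes in their list passed the test. *Sgms1* was at 49.2, 45.3 and 49.1 CPM in control and at 47.9, 39.2 and 98.3 CPM in *Mttp-IKO* pools, and *Sgms2* at 47.8, 71.3 and 55.9 CPM and at 45.8, 50.1 and 107 CPM. Both were high in *Mttp-IKO* pool 3 alone. Their log2 fold changes, 0.37 and 0.21, became -0.13 and -0.28 without that pool. Among 6 other genes tested that encode sphingomyelinases or proteins similar to them in sequence, 0 passed and 5 estimates were below 0. Those of the sphingomyelinase-like *Smpdl3a* and of *Smpd5* were -0.23 (adjusted p = 0.468, edgeR) and -0.86 (adjusted p = 0.165, edgeR). *Acer2*, a Golgi ceramidase, was at 36.5, 32.8 and 39.7 CPM in control and at 45.5, 47.8 and 58.6 CPM in *Mttp-IKO* pools, without overlap (0.48, adjusted p = 0.130, edgeR). Of the 2 ceramidases tested in this list, *Acer2* included, 0 passed.

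Downstream of ceramidase, 0 of 8 genes of sphingosine 1-phosphate turnover passed. *Sphk1*, a sphingosine kinase, was at 3.47, 2.58 and 3.53 CPM in control and at 1.61, 0.686 and 2.06 CPM in *Mttp-IKO* pools (-1.14, adjusted p = 0.146, edgeR), and *Plpp3*, a lipid phosphatase, differed by 0.23 (adjusted p = 0.513, edgeR). *Apom*, which carries sphingosine 1-phosphate in plasma, was at 100.2, 127 and 121 CPM in control and at 176, 165 and 80.8 CPM in *Mttp-IKO* pools, with pool 3 below every control pool (0.28, adjusted p = 0.601, edgeR). *Gltp*, a glycolipid transfer protein, was at 36.0, 21.5 and 30.6 CPM in control and at 16.02, 13.7 and 8.89 CPM in *Mttp-IKO* pools (-1.19, adjusted p = 0.0528, edgeR, under 0.05 in 8 of 17 alternative analyses). All 3 of its *Mttp-IKO* values were below the control values. *Gltp* was listed with ceramide kinase and ceramide transfer proteins, where 0 of 5 genes passed. In that list 3 of 5 genes had an unadjusted p under 0.05 (edgeR), against 23.0% of all genes tested.

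Glycosphingolipid synthesis genes had 0 of 8 past the threshold and estimates in both directions. *St3gal5*, the ganglioside GM3 synthase, was at 273, 295 and 353 CPM in control and at 433, 640 and 739 CPM in *Mttp-IKO* pools (0.97, adjusted p = 0.0629, edgeR). *Gal3st1*, the sulfotransferase that makes sulfatide, was at 5.23, 1.64 and 3.03 CPM and at 0.806, 1.44 and 1.26 CPM (-1.50, adjusted p = 0.107, edgeR). The genotypes did not overlap for either gene, and the adjusted p of each was under 0.05 in 2 of 17 alternative analyses.

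Glycosphingolipid breakdown and saposin genes also had 0 of 12 past the threshold. Of the estimates, 8 were below 0 and 7 of 12 unadjusted p-values were under 0.05, against 23.0% of all genes, with a median log2 fold change of -0.47. *Psap*, the precursor of the saposins that present lipids to lysosomal hydrolases, was at 1587, 881 and 1525 CPM in control and at 614, 716 and 684 CPM in *Mttp-IKO* pools, without overlap (-0.99, adjusted p = 0.0731, edgeR, under 0.05 in 4 of 17 alternative analyses). Control pool 2, lowest of the controls for *Psap*, was also lowest for the recruited macrophage markers (274 CPM against 840 and 840 CPM), and the part of these cells in the *Psap* values was not tested. *Asah1* and *Smpd1*, lysosomal enzymes of the 10 described above, overlapped between the same pools.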

How the data were processed

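Liver RNA of 3 control and 3 *Mttp-IKO* pools was analysed, grouped by their labels. The authors deposited a read count per gene for 41388 genes in each pool, from STAR 2.5.1a alignment to GRCm38 and featureCounts 1.4.6-p5 per the submitters' processing notes, without normalization, from libraries depleted of ribosomal RNA (KAPA RiboErase). The deposited CPM and RPKM columns follow from those counts and were not tested. A deposited table of all pools pairs 40481 of the genes with symbols; its 276 repeated lines were dropped. Counts of 0 allow up to 3 reads, or 0.0744 to 0.126 CPM, which covers counting error only. No 2 pools of a genotype were alike within sampling noise (chi-square per degree of freedom 37.1 to 214.9).

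Genes were filtered by filterByExpr of edgeR 4.0.16 (minimum count 10, minimum total 15), scaled by TMM (factors 0.898 to 1.11) and compared by glmQLFit and glmQLFTest in R 4.3.3, with Benjamini-Hochberg adjustment over 17287 genes and a threshold of 0.05; the script was first tested on simulated data. The study names no tool for this step. CPM and RPKM in the text are TMM-scaled, and RPKM uses the gene length of the files. Alternatives used DESeq2 1.42.0, limma 3.58.1, other scalings and filters, a length trend, protein-coding genes, a replicate block and each pool left out. Sequences were matched in Python 3.11.15 with Biopython 1.88.

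The 10 genes and all lists were chosen with earlier results of these data known. The genes named are the 10, *Mttp*, every other sphingolipid gene with an adjusted p under 0.05 and, in each list, the gene with the highest mean RPKM and the one with the largest absolute log2 fold change at an average log2 CPM of at least 0. Protein sequences were not used here.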

Additional observations from a re-analysis of the deposited data

How the results depend on the processing

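None of the 10 enzymes had an adjusted p under 0.05 in any of 17 alternative analyses, where the lowest were 0.0857 for *Cers5* and 0.0885 for *Degs1*, both with total counts as the only scaling. *Cers2*, *Cers4*, *Cers5*, *Cers6*, *Degs1* and *Asah2* kept their direction in 17 of 17. Total-count scaling turned *Sptlc1* to -0.114, *Sptlc2* to -0.126 and *Asah1* to -0.062, and moved the median of all genes from 0.006 to -0.175, so relative to it these 3 were not lower; it also moved the share of higher calls from 22.9% to 11%, against 32.9% by DESeq2. Removing the length trend turned *Smpd1* to 0.052. With each pool left out, log2 fold changes ran from -0.052 to 0.154 for *Sptlc1*, -0.075 to 0.17 for *Sptlc2*, -0.098 to 0.03 for *Smpd1*, -0.009 to 0.184 for *Asah1*, -0.295 to 0.029 for *Kdsr*, -0.133 to 0.611 for *Sgms1* and -0.279 to 0.427 for *Sgms2*. Of all genes, 694 passed, 1995 by DESeq2, 428 by limma-voom and 0 to 892 with a pool left out; the 0, without *Mttp-IKO* pool 2, had 3221 genes at an unadjusted p under 0.05, and the others were 24 and 21 without control pools 1 and 3, 55 without *Mttp-IKO* pool 1 and 864 without *Mttp-IKO* pool 3. Of the 58 other sphingolipid genes, 1 passed, against 2 with DESeq2 size factors, 3 with upper quartile scaling, 6 with total counts, 6 with no filter, 4 with a CPM filter, 10 by DESeq2, 5 without the length trend, 4 among protein-coding genes and 0 to 6 with a pool left out. In the 8 settings before the pools left out, 657, 741, 1019, 990, 719, 1995, 872 and 733 of all genes passed, in that order. The cause was not tested. After removal of the genotype mean, correlations of same-numbered pools were 0.139, 0.112 and 0.007. Each control pool was closest to its own number, and so were *Mttp-IKO* pools 1 and 2. *Mttp-IKO* pool 3 was closer to control pool 2 (0.021). With 3 pools a genotype, whether replicate numbers pair the pools cannot be decided. With the replicate block 592 genes passed, among them 0 of the 10 enzymes and 1 of the other sphingolipid genes, *S1pr2*. The count of the 10 enzymes at an unadjusted p under 0.05 was then 1, and over all genes it was 3705 of 17287. *Elovl4* passed with the block (0.896, adjusted p = 0.0492, edgeR). Having 3 pools a genotype and 113 to 309 reads for *Cers5* limit what could be called.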

Other observations

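Very-long-chain acyl-CoA, the substrate of *Cers2*, is made by a cycle of reactions in the endoplasmic reticulum. The 12 genes listed for acyl-CoA elongation include elongases of other chains, so their summary does not describe supply of this substrate alone. Of the 12, 0 passed an adjusted p of 0.05 by edgeR, against 4.01% of all genes tested. An unadjusted p under 0.05 was found for 4, against 23.0% of all genes tested. Estimates were above 0 for 8 genes and below for 4, with a median log2 fold change of 0.23. *Tecr*, the reductase that closes the cycle, was at 139, 163 and 147 CPM in control and at 203, 278 and 223 CPM in *Mttp-IKO* pools, without overlap (0.65 on the log2 scale, adjusted p = 0.0854, edgeR, under 0.05 in 2 of 17 alternative analyses). *Elovl4* was at 22.3, 17.3 and 11.03 CPM in control and at 36.2, 38.6 and 19.6 CPM in *Mttp-IKO* pools, with overlap (0.90, adjusted p = 0.152, edgeR, under 0.05 in 1 of 17). *Elovl2* and *Elovl5*, elongases of polyunsaturated chains, were without overlap (0.49 and 0.71, adjusted p = 0.139 and 0.0976, edgeR). *Elovl1*, the elongase of saturated very-long chains, differed by -0.27 (adjusted p = 0.442, edgeR) and overlapped. These last 3 genes were chosen after their values had been seen.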
